A study of Mus musculus with 8 samples.

Results

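A panel of 55 interferon genes was followed across Myc-CaP prostate tumors that carried a control vector or a guide RNA against Arid1a and received vehicle or the NF-κB inhibitor JSH-23. The 55 symbols, out of 39089 genes in the count tables, were taken by name as interferon-induced effectors and signalling factors, and all 55 had an entry in the tables. The panel comprised 7 receptor chains and JAK kinases, 7 STAT and IRF transcription factors, 2 feedback inhibitors, 3 nucleic acid sensors, 15 antiviral effectors, 6 immunity-related GTPases and guanylate-binding proteins, 6 ubiquitin and ADP-ribose ligases, 7 other interferon-induced genes and 2 T-cell chemokines.

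Type I interferons bind the Ifnar1-Ifnar2 receptor, whose kinases Jak1 and Tyk2 phosphorylate STAT proteins, and the STAT complex containing Stat2 and Irf9 then binds the interferon-stimulated response element (ISRE) in the promoters of antiviral genes. Interferon gamma signals through Ifngr1-Ifngr2, Jak1 and Jak2, and drives genes such as the guanylate-binding proteins and Cxcl9 through the gamma-activated site (GAS) and the factor Irf1. NF-κB takes part in the induction of the interferon beta gene and of several interferon-responsive genes, among them Irf1 and Cxcl10. In tumors, interferon-induced Cxcl9 and Cxcl10 attract T cells.

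Myc-CaP is a mouse prostate cancer cell line driven by a Myc transgene. The cells carried a control vector (Myc-CaP EV, called WT below) or a guide RNA against Arid1a, whose protein belongs to the SWI/SNF complexes that remodel chromatin (Myc-CaP Arid1a KO, called KO below). They were grown under the skin of male FVB mice that were 6 weeks old according to the labels, so that all tumors had immunocompetent hosts. JSH-23 keeps p65, a subunit of NF-κB, out of the nucleus, and mice received it by gavage daily for 2 weeks from day 16, or corn oil as the vehicle. RNA was sequenced from cells sorted as EpCAM-positive and CD45-negative, and each of the 4 groups has 2 samples: WT with vehicle, KO with vehicle, WT with JSH-23 and KO with JSH-23. The labels do not say whether the 2 samples of a group came from separate tumors, so the p-values measure only the spread between these samples, which may be technical. Whether the KO cells were 1 clone or a pool is not given in the labels.

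Total counts ranged from 16401581 to 21972231 per sample, and between 0.116% and 0.129% of them fell on the 55 genes. A count of 3, the floor used below, corresponded to between 0.137 and 0.183 CPM when scaled to the total of the sample alone. The CPM values of genes and markers are scaled to the total adjusted by the TMM factor of the sample. These factors lay between 0.949 and 1.03 and were lowest in KO tumors with JSH-23, so the floor is on a slightly different scale. Arid1a itself was at 156 and 161 CPM in WT tumors with vehicle, 144 and 155 in JSH-23-treated WT tumors, 103 and 106 in KO tumors with vehicle and 93.8 and 95.9 in KO tumors with JSH-23, so it was lower in every KO sample. With vehicle it differed by -0.60 on the log2 scale (standard error 0.04, adjusted p = 1.39e-23). Adjusted p-values here and below come from the quasi-likelihood test of edgeR, adjusted by Benjamini-Hochberg over all genes tested. The epithelial markers went partly against the sort. Epcam had between 0 and 4 counts in every sample, Cdh1 between 1 and 19 and Krt18 between 4 and 18, whereas Krt8 had between 540 and 2308 counts and was higher in KO tumors. At the transcript level, the gate marker was therefore at or near the floor in all 4 groups.

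The libraries also differed in their traces of leukocyte RNA, and the markers did not all move together. Of 20 leukocyte markers, Cd68 and Lyz2 held most counts, between 8 and 13 were at 0 in each sample, and their summed level was 20.9 and 22.2 CPM in WT tumors with vehicle, 20.3 and 22.6 in KO tumors with vehicle, 20.2 and 10.6 in JSH-23-treated WT tumors and 13.3 and 10.2 in KO tumors with JSH-23. A subset of 6 myeloid markers (Itgam, Adgre1, Csf1r, Fcer1g, Tyrobp and Ptprc), picked after their values were seen, summed to 75 and 83 counts in WT tumors with vehicle and to 68 counts in WT sample 1 with JSH-23, against 4 to 13 counts in the other 5 libraries. Cd68, a macrophage marker outside that subset, had another pattern: it was at 6.53 and 7.47 CPM in WT and 16.6 and 18.3 in KO tumors with vehicle, and at 5.47 and 4.92 in WT and 8.92 and 7.34 in KO tumors with JSH-23. Lyz2 was at 9.74 and 9.70 CPM in WT and 2.98 and 3.44 in KO tumors with vehicle, and at 10.6 and 5.17 in WT and 3.68 and 2.30 in KO tumors with JSH-23. Cd68 was thus highest in KO tumors with vehicle, while Lyz2 was higher in the WT samples of each treatment. The T-cell marker Cd8a was at 0 in every sample, and Cd3e had at most 2 counts. Of 7 fibroblast markers, Pdgfra held most counts, and their sum was between 61.3 and 66.2 CPM in 6 libraries and 43.6 and 42.0 CPM in KO tumors with JSH-23.

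Sequence from 250 bases before to 50 bases after the start of the gene was held for 46 of the 55 members (RefSeq, GRCm38.p6). The letters of the ISRE (GAAA, any 2 bases, then GAAA, on either strand) were found for 19 of these 46 (41.3%), against 3.99% of 27025 genes with such a window. The letters of the GAS (TTCNNNGAA, which reads the same on both strands) were found for 13 (28.3%), against 9.55% of genes, and 1 of 29 ISRE matches overlapped a GAS match. Stretches of 80 bases are shown for Isg15, Gbp2 and Irgm2, which fell with JSH-23 in KO tumors, and for Stat2, which rose. They lie at chr4:156200837-156200916 (minus strand), chr3:142620583-142620662 (plus strand), chr11:58214893-58214972 (plus strand) and chr10:128270256-128270335 (plus strand), respectively. They are written 5′ to 3′ along the gene's strand, and capitals mark the ISRE matches, which begin with TTTC where the match is read on the opposite strand.
Isg15: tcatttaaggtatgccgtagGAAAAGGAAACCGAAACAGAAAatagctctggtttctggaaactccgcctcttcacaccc
Gbp2: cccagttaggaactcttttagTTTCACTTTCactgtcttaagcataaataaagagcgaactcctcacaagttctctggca
Irgm2: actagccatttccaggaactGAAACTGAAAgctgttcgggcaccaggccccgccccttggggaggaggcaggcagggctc
Stat2: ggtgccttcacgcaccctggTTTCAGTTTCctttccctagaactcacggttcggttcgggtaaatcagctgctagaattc
In Isg15 a run of 3 overlapping matches begins 78 bases before the start, in Gbp2 a single match begins 59 bases before it, in Irgm2 64 bases and in Stat2 222 bases before it. These matches are a description of the letters and do not show binding.

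Levels between genes were compared as TPM, which takes the length of the gene into account. Several signalling members were well expressed: Jak1 averaged 70.6 TPM, Tyk2 43.2, Irf1 81.3 and Stat3 58.2 over the 8 samples. The effector Bst2, a membrane protein that tethers budding virus, was the highest of all at 164 TPM. Only 19 of 55 members averaged over 10 TPM, and the median of the 55 was 4.02 TPM. Classical antiviral genes were barely detected: Ifit1 averaged 0.346 TPM, Mx1 0.203 and Oas1a 0.234. Of the 21 interferon genes looked for, 15 had no count in any sample and the highest single value was 7 counts, so a transcript of the ligands was hardly detectable at this depth.

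For the tests, 47 of the 55 members passed the filter on low counts that left 13921 of all genes. The 8 that did not were Ifih1, Zbp1, Oas1a, Mx2, Cmpk2, Ifi44, Rtp4 and Sp100. Mx1 and Cxcl9 reached the level of the filter (0.566 CPM) only in the WT samples with vehicle, and Ifit1 and Ifit3 only in these and 1 WT sample with JSH-23, so differences between WT and KO tumors were built into the selection of these 4. A gene was called when this adjusted p was under 0.05 and the change was at least 1.5-fold. Counts over the 47 tested members are given below beside the same share over all genes.

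With vehicle, loss of Arid1a came with higher levels of a small set of effectors. In KO against WT tumors with vehicle 8 members rose (7.48% of all genes did) and 3 fell (5.16%), and 36 were not called. The median log2 fold change was 0.07 over the members and 0.00 over all genes. Of the 14 tested members with a mean between 1 and 10 CPM, 7 rose, against 15.9% of genes at that level. Of the 23 over 10 CPM, 1 rose, against 3.70% of genes. The risers were Isg15, Gbp2, Gbp7, Igtp, Trim21, Herc6, Xaf1 and Lgals3bp, and those that fell, Mx1, Ifit3 and Cxcl9, were among the least expressed members and reached the level of the filter only in WT samples.

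JSH-23 lowered more members than it raised in both genotypes. In WT tumors 2 rose (5.55% of all genes) and 11 fell (10.2%), with a median log2 fold change of -0.43 against -0.01 over all genes. In KO tumors 5 rose (9.10%) and 24 fell (16.9%), with a median of -0.73 against -0.02. In the same comparison the summed leukocyte markers were at 20.3 and 22.6 CPM with vehicle and 13.3 and 10.2 with JSH-23, and the fibroblast markers at 65.6 and 65.7 against 43.6 and 42.0, and their part in the falls was not tested. These shares varied with the level of the genes. Of the 14 tested members with a mean between 1 and 10 CPM, 13 fell in KO tumors, against 33.6% of the 3048 genes at that level, and 0 rose (11.6%). Of the 23 members over 10 CPM, 5 fell, against 8.53% of 9194 genes, and 4 rose (8.59%), with a median log2 fold change of -0.10. Of the 10 under 1 CPM, 6 fell, against 32.8% of 1679 genes, and 1 rose (7.33%).

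With JSH-23, more members were lower than higher in KO tumors. Compared with WT tumors on the same drug, 2 members were higher (3.74% of all genes) and 8 were lower (4.97%), with a median log2 fold change of -0.19 against -0.01. Of these 8, Mx1, Cxcl9 and Ifit1 reached the level of the filter only in WT samples. A lower level in KO tumors was thus built into their selection. The difference between the JSH-23 effects of the genotypes, tested as an interaction, was called for 11 members. The effect was more negative in KO tumors for 10 of them (5.76% of all genes) and more positive for 1 (3.30%). The comparisons share samples, so their counts are not independent of each other. By the adjusted p alone, without the 1.5-fold threshold, 22 members passed in KO against WT tumors with vehicle (50.5% of all genes), 24 in the same comparison with JSH-23 (47.0%), 26 with JSH-23 in WT tumors (55.8%), 41 in KO tumors (67.8%) and 19 by interaction (38.4%). All 5 comparisons rest on pairs whose common biological coefficient of variation was only 1.61%, and with the coefficient set to 0.2 by edgeR's test 0 interactions of members were called. DESeq2 called 5.

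**Figure D1:**
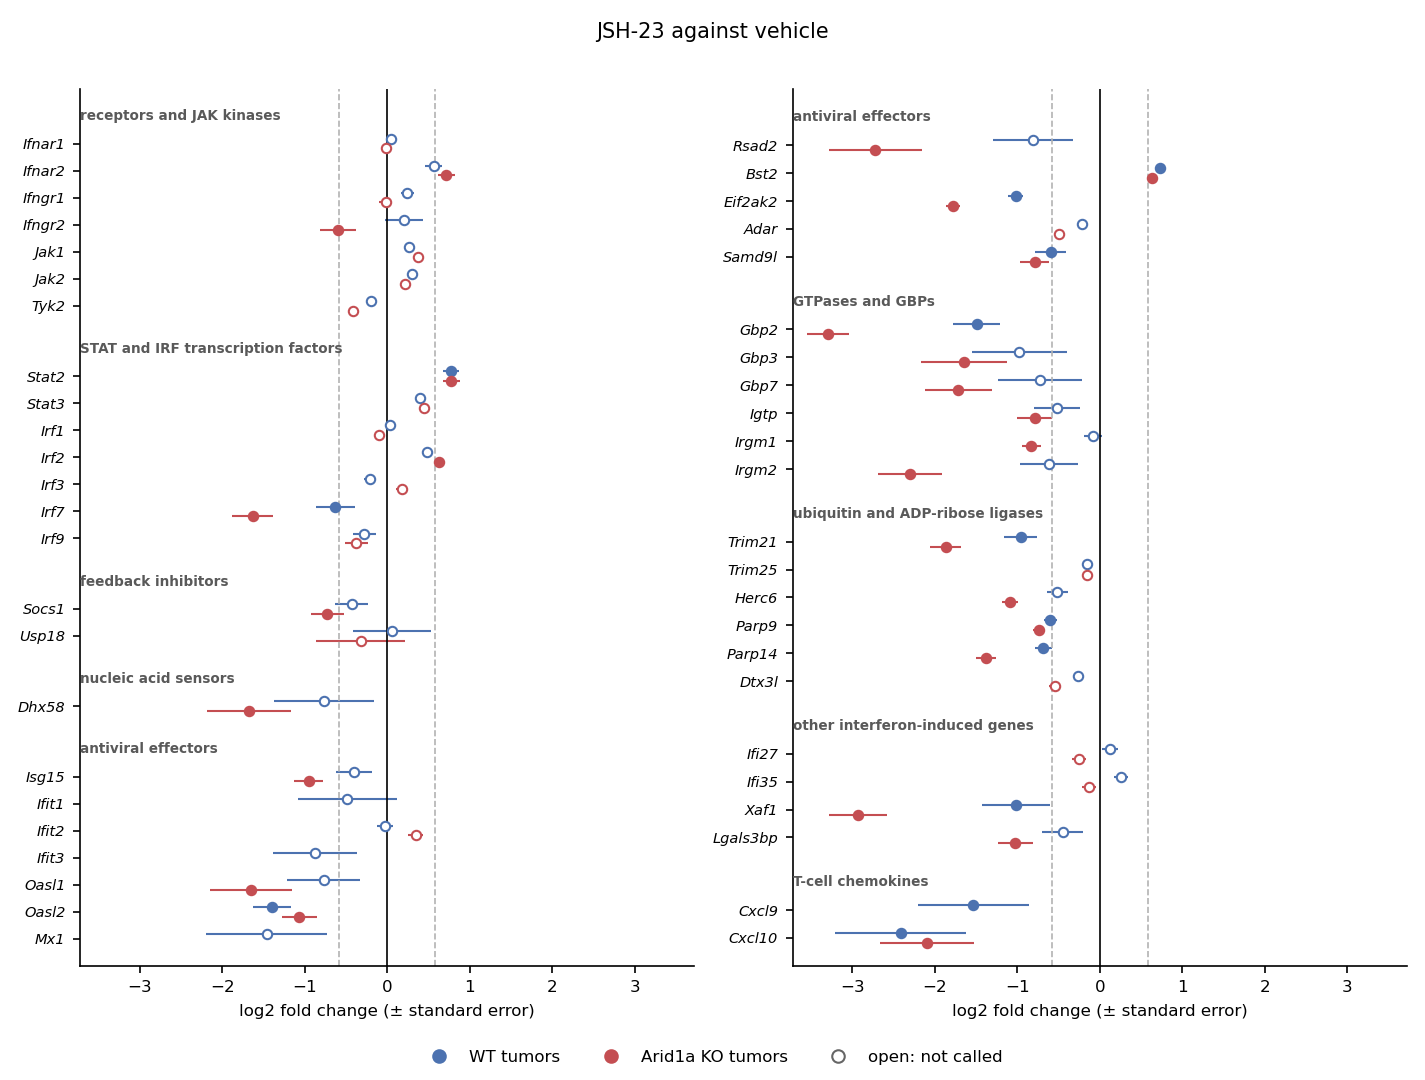
Log2 fold change (± standard error) of JSH-23 against vehicle for the tested members, grouped by role, in WT (blue) and KO tumors (red). Filled points were called, dashed lines mark a 1.5-fold change, and values for groups with 3 counts or fewer (Ifit1, Ifit3, Mx1 and Cxcl9 in KO tumors) are left out. Gbp2, Xaf1 and Rsad2 have the lowest values in KO tumors, while Stat2 and Bst2 lie to the right of 0 in both.

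The receptor chains and JAK kinases changed little. None of the 7 was called in either comparison of genotypes, nor with JSH-23 in WT tumors, and in KO tumors JSH-23 raised Ifnar2 and lowered Ifngr2. Ifnar1, the chain that binds Tyk2, was at 57.3 and 55.5 CPM in WT tumors with vehicle, 44.1 and 45.3 in KO tumors with vehicle, 58.7 and 57.9 in JSH-23-treated WT tumors and 44.0 and 44.4 in KO tumors with JSH-23. It was lower in every KO sample, by 0.33 (standard error 0.06) on the log2 scale with vehicle, under the 1.5-fold threshold. Ifnar2, the chain that binds Jak1, was at 13.3 and 14.3 CPM in WT and 10.4 and 11.8 CPM in KO tumors with vehicle, and at 20.4 in both WT samples and 18.5 and 18.1 in KO tumors with JSH-23. The samples with JSH-23 were above those with vehicle in both genotypes, with log2 fold changes of 0.56 (standard error 0.10) in WT and 0.72 (standard error 0.10) in KO tumors. The adjusted p of the latter was 3.32e-09.

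The interferon gamma receptor showed no called change of its ligand-binding chain. Ifngr1 was at 27.2 and 25.4 CPM in WT and 26.0 and 25.8 in KO tumors with vehicle, and at 33.1 and 28.9 in WT and 26.4 and 24.8 in KO tumors with JSH-23. Ifngr2, its signalling partner, was at 2.85 and 2.94 CPM in WT and 3.87 and 3.97 in KO tumors with vehicle, and at 3.35 and 3.34 in WT and 3.03 and 2.21 in KO tumors with JSH-23. It fell by 0.59 on the log2 scale with JSH-23 in KO tumors (standard error 0.22, adjusted p = 0.0131), right at the threshold, and that call was lost when any of 5 libraries was left out. The kinase Jak1 was at 154 and 147 CPM in WT and 156 and 159 in KO tumors with vehicle, and at 188 and 174 in WT and 202 and 207 in KO tumors with JSH-23. Tyk2 moved the other way, from 107 and 112 CPM to 97.2 and 94.7 in WT tumors and from 110 and 106 to 78.3 and 83.1 in KO tumors. For both kinases the samples with and without JSH-23 did not overlap, and every difference was under 1.5-fold.

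Among the transcription factors, Stat2 and Irf7 went in opposite directions. Stat2, the STAT that is specific to type I and III interferon, was at 15.4 and 13 CPM in WT and 11.2 and 10.3 in KO tumors with vehicle, and at 25.3 and 23.2 in WT and 18.2 and 18.6 in KO tumors with JSH-23. All samples with JSH-23 were above all samples with vehicle, and in each treatment the KO samples were below the WT samples. JSH-23 raised Stat2 by a log2 fold change of 0.78 in both genotypes (standard error 0.10 in each, adjusted p = 2.17e-10 in WT and 5.77e-10 in KO tumors), and the interaction was 0.00 (standard error 0.13). The KO call of Stat2 was lost with glmTreat, with a biological coefficient of variation of 0.2 and with limma on TPM (0.47 and 0.53), and so was that of Ifnar2. The WT call of Stat2 was lost with glmTreat and with a coefficient of 0.2. The partner of Stat2, Irf9, was at 10.8 and 8.47 CPM in WT and 7.73 and 8.09 in KO tumors with vehicle, and at 7.87 and 8.02 in WT and 6.54 and 5.71 in KO tumors with JSH-23, with no call in any comparison.

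Irf7, the factor that amplifies interferon production and is itself interferon-induced, was at 3.27 and 5.18 CPM in WT tumors with vehicle, 4.97 and 4.5 in KO tumors with vehicle, 3.46 and 1.95 in JSH-23-treated WT tumors and 1.24 and 1.77 in KO tumors with JSH-23. The KO samples with JSH-23 were the lowest of all, and the WT samples with and without JSH-23 overlapped. JSH-23 lowered Irf7 by a log2 change of -1.63 in KO tumors (standard error 0.25, adjusted p = 3.71e-08) and by -0.63 in WT tumors (standard error 0.24, adjusted p = 0.0208), and the interaction was -1.0 (standard error 0.35, adjusted p = 0.0187). The WT call was lost without sample 2 of either WT group. The interaction call was lost without WT sample 1 of either treatment or without sample 1 of either KO group. Irf1, an NF-κB and STAT target, was at 105 and 99.8 CPM in WT and 131 and 124 in KO tumors with vehicle, and at 107 and 102 in WT and 121 and 117 in KO tumors with JSH-23. It was higher in every KO sample, by 0.31 (standard error 0.04) with vehicle and 0.19 (standard error 0.04) with JSH-23 on the log2 scale, and its JSH-23 effects were 0.03 in WT and -0.10 in KO tumors, none of them 1.5-fold. Irf2, which competes with Irf1 for its sites, rose with JSH-23 in KO tumors, from 39.1 and 43.5 CPM to 65.9 and 61.8, and was at 42.0 and 41.9 CPM with vehicle and 57.2 and 60.7 with JSH-23 in WT tumors. The KO change of 0.62 (standard error 0.06) passed the 1.5-fold threshold and the WT change of 0.49 (standard error 0.06) did not, while the interaction of 0.14 (standard error 0.08, adjusted p = 0.2) was not called, and the KO call was lost without KO sample 1 with vehicle.

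**Figure D2:**
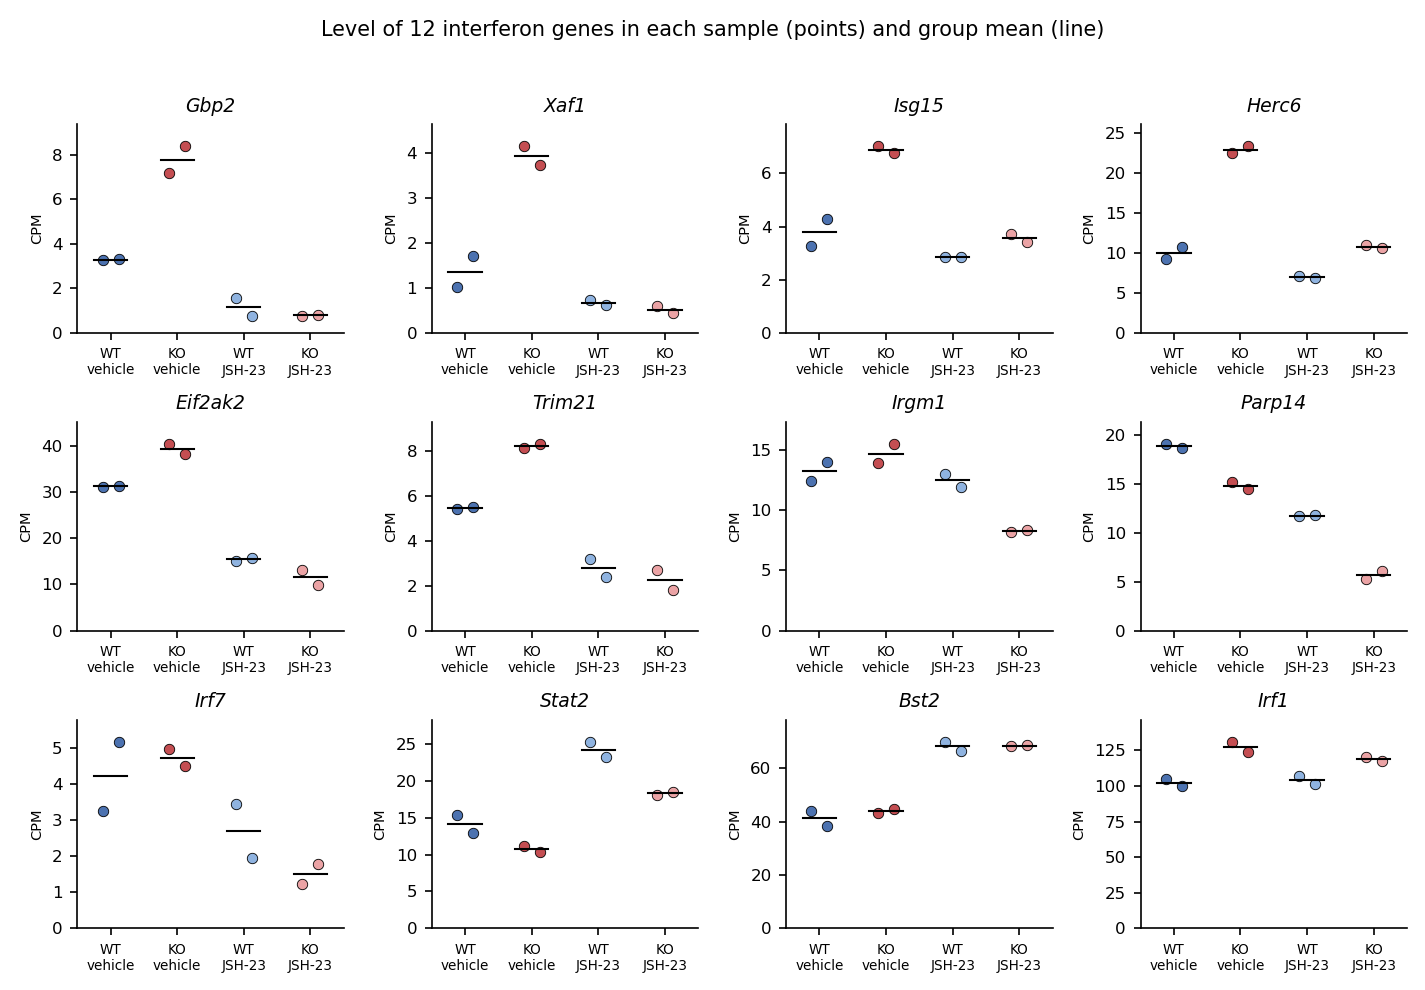
Level in CPM of 12 members in each sample (points) with the mean of the 2 samples (line), on axes that start at 0. Gbp2, Xaf1, Isg15, Herc6 and Trim21 are highest in the KO samples with vehicle, Stat2 and Bst2 are highest with JSH-23, and Irf1 stays between 99.8 and 131 CPM.

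The 2 feedback inhibitors of the panel averaged at most 7.62 TPM and its 3 nucleic acid sensors at most 0.678 TPM. Socs1, which blocks JAK kinases, fell with JSH-23 in KO tumors from 5.14 and 5.04 CPM to 2.81 and 3.31, a log2 change of -0.73 (standard error 0.20, adjusted p = 0.00101). Usp18, the protease that removes Isg15 from proteins and dampens Ifnar2, was not called in any comparison and lay between 0.365 and 1.56 CPM. The only sensor tested, Dhx58, which binds viral RNA, went from 1.10 and 1.36 CPM to 0.595 and 0.192 in KO tumors with JSH-23, a log2 change of -1.67 (standard error 0.51, adjusted p = 0.00297) that was not called without KO sample 2 with JSH-23.

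Of the 12 antiviral effectors tested, Isg15 was the only one called higher in KO than in WT tumors with vehicle (7.48% of all genes were). Eif2ak2 and Adar were also higher by the adjusted p alone, by 0.33 and 0.15 on the log2 scale, under the 1.5-fold threshold. Isg15, a ubiquitin-like protein that is attached to other proteins, was at 3.27 and 4.29 CPM in WT and 7.02 and 6.78 in KO tumors with vehicle, and at 2.85 and 2.86 in WT and 3.73 and 3.41 in KO tumors with JSH-23. The KO samples with vehicle stood above all others. The rise with vehicle was 0.87 on the log2 scale (standard error 0.18, adjusted p = 3.9e-05) and the fall with JSH-23 in KO tumors was -0.95 (standard error 0.18, adjusted p = 2.94e-06), against -0.41 (standard error 0.22, not called) in WT tumors. The interaction for Isg15, -0.55 (standard error 0.28, adjusted p = 0.122), was not called.

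JSH-23 lowered 3 antiviral effectors in WT tumors (Eif2ak2, Oasl2 and Samd9l) and 7 in KO tumors, which were the same 3 with Isg15, Ifit1, Oasl1 and Rsad2. Over all genes 10.2% fell in WT and 16.9% in KO tumors. Eif2ak2, the kinase PKR that halts translation on double-stranded RNA, was at 31.1 and 31.3 CPM in WT and 40.3 and 38.1 in KO tumors with vehicle, and at 15.1 and 15.7 in WT and 13.1 and 9.83 in KO tumors with JSH-23. Every sample with JSH-23 was far below the lowest vehicle sample. The log2 fold changes were -1.02 in WT (standard error 0.09, adjusted p = 1.12e-15) and -1.78 in KO tumors (standard error 0.09, adjusted p = 2.02e-28), and they differed by -0.76 (standard error 0.13, adjusted p = 1.88e-06), a call that was lost without KO sample 2 with JSH-23. Oasl2, of the family of oligoadenylate synthetase-like proteins, was at 4.51 and 5.59 CPM in WT and 5.08 and 5.33 in KO tumors with vehicle, and at 2.35 and 1.46 in WT and 2.38 and 2.59 in KO tumors with JSH-23. Its falls of -1.39 (standard error 0.23) in WT and -1.06 (standard error 0.21) in KO tumors were not called as different, with an interaction of 0.33 (standard error 0.32, adjusted p = 0.443).

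Bst2 rose with JSH-23. It was at 44.0 and 38.5 CPM in WT and 43.0 and 44.9 in KO tumors with vehicle, and at 69.8 and 66.6 in WT and 68.2 and 68.6 in KO tumors with JSH-23. All samples with JSH-23 were higher, by log2 fold changes of 0.73 (standard error 0.06, adjusted p = 6.72e-18) in WT and 0.64 (standard error 0.05, adjusted p = 7.72e-17) in KO tumors. The KO call of Bst2 was lost with scaling by library size only (0.52), with glmTreat, with a biological coefficient of variation of 0.2 and with limma on TPM (0.40 with either pseudocount). Its WT call was lost with a coefficient of 0.2. The difference between the genotypes was 0.09 with vehicle and 0.00 with JSH-23 (standard errors 0.06 and 0.05), and neither was called. Ifit2, from a family that binds viral RNA, stayed between 15.1 and 19.5 CPM, and Adar, which edits double-stranded RNA, between 33.1 and 50.8 CPM, without a call.

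Some of the least expressed effectors had the split of the 6 myeloid markers that were picked after their values were seen. The summed 20 leukocyte markers did not have it, and Cd68 was at 6.53 and 7.47 CPM in WT and 16.6 and 18.3 in KO tumors with vehicle. Mx1, a GTPase that blocks influenza virus, had 11 and 11 counts in WT tumors with vehicle, 8 and 0 in JSH-23-treated WT tumors and 0 in all 4 KO samples. It was at least 4.18-fold lower in KO than in WT tumors with vehicle, computed against 3 counts per library. Ifit3 had 21 and 17 counts in WT and 2 and 1 in KO tumors with vehicle, and 18 and 3 in WT and 8 and 8 in KO tumors with JSH-23. By the ratio of the summed counts it was 14.5-fold lower in KO than in WT tumors with vehicle (95% Clopper-Pearson counting interval 4.6 to 73.4). In KO tumors it was 5.25-fold higher with JSH-23 than with vehicle (1.5 to 28.1), a call lost without KO sample 2 with vehicle or KO sample 1 with JSH-23. Its near-identical copy Ifit3b can share reads with it, so its counts are uncertain. Cmpk2, Ifi44 and Rsad2 were picked after their values were seen. Cmpk2, too low to be tested, had 8 and 13 counts in WT tumors with vehicle, 7 and 0 in JSH-23-treated WT tumors and at most 2 in any KO sample. Ifi44, also untested, had 4 and 7 counts in WT tumors with vehicle, 8 and 0 in JSH-23-treated WT tumors and at most 2 in any KO sample. The highest counts of Mx1, Ifit3, Cmpk2 and Ifi44 occurred in the same 3 libraries as the high counts of the 6 myeloid markers, and the part of the latter in these differences was not tested. Rsad2, an enzyme that makes a chain-terminating nucleotide, was at 1.19 and 1.35 CPM in WT and 1.38 and 1.70 in KO tumors with vehicle, and at 1.28 and 0.122 in WT and 0.108 and 0.336 in KO tumors with JSH-23. Its fall in KO tumors was -2.72 on the log2 scale (standard error 0.56, adjusted p = 1.94e-05).

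**Figure D3:**
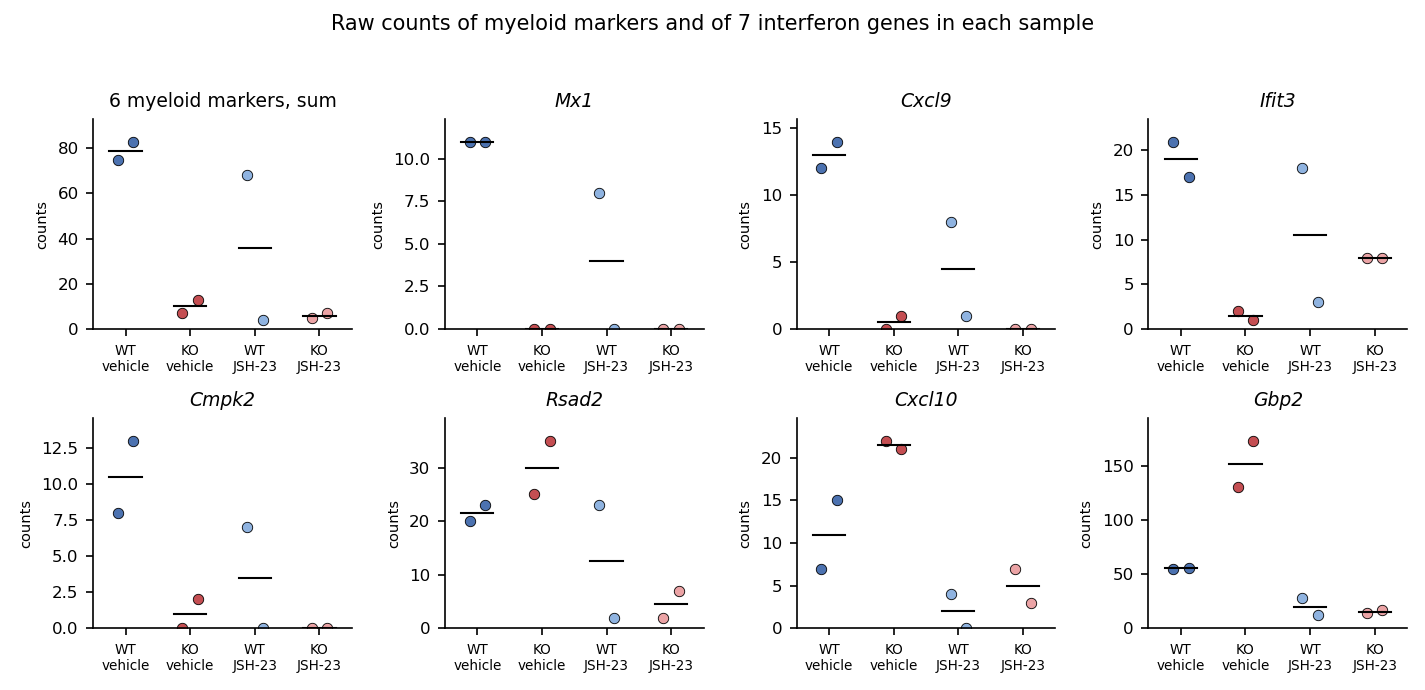
Raw counts in each sample (points) and group means (lines) for the sum of 6 myeloid markers, picked after their values were seen, and for 7 weakly expressed members. Cd68, outside that sum, is not drawn and is highest in KO samples with vehicle. The sum is 68 to 83 in both WT samples with vehicle and WT sample 1 with JSH-23 and 4 to 13 elsewhere. Mx1, Cxcl9 and Cmpk2 share that split, while Cxcl10 and Gbp2 are highest in KO samples with vehicle. Rsad2 has 20 to 35 counts in the samples with vehicle and 23 in WT sample 1 with JSH-23. It has 2 to 7 in the other samples with JSH-23.

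All 6 immunity-related GTPases and guanylate-binding proteins fell with JSH-23 in KO tumors, as did 16.9% of all genes and 33.6% of genes between 1 and 10 CPM. The median log2 fold change of the 6 was -1.68. These proteins attack the vacuoles of intracellular pathogens. In WT tumors only Gbp2 was called. In KO tumors the call of Gbp3 was lost without KO sample 2 of either treatment and with DESeq2. That of Igtp was lost without KO sample 1 with JSH-23 and with glmTreat. Gbp2 (chromosome 3 of GRCm38, 142620663 to 142638008) was at 3.27 and 3.29 CPM in WT and 7.18 and 8.38 in KO tumors with vehicle, and at 1.56 and 0.730 in WT and 0.757 and 0.815 in KO tumors with JSH-23. The KO samples were the highest with vehicle, and with JSH-23 they lay within the range of the WT samples. The KO to WT difference with vehicle was 1.25 on the log2 scale (standard error 0.20, adjusted p = 1.27e-07), and the JSH-23 effects were -1.49 in WT (standard error 0.28, adjusted p = 6.75e-06) and -3.30 in KO tumors (standard error 0.25, adjusted p = 4.04e-19). They differed by -1.81 (standard error 0.42, adjusted p = 0.000337), a call that was lost without WT sample 1 with JSH-23.

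Gbp7, on the same stretch of chromosome 3 (142530336 to 142550151), was at 1.01 and 0.823 CPM in WT and 2.65 and 1.6 in KO tumors with vehicle, and at 0.838 and 0.243 in WT and 0.811 and 0.480 in KO tumors with JSH-23. Igtp, an immunity-related GTPase on chromosome 11, was at 2.08 and 3.0 CPM in WT and 5.41 and 5.04 in KO tumors with vehicle, and at 2.07 and 1.46 in WT and 2.38 and 3.60 in KO tumors with JSH-23. Igtp was higher in KO samples under both treatments, by 1.04 (standard error 0.22, adjusted p = 6.33e-05) with vehicle and 0.76 (standard error 0.26, adjusted p = 0.0124) with JSH-23, and the latter call was lost without sample 2 of either JSH-23 group. The rise of Gbp7 with vehicle, 1.19 (standard error 0.40, adjusted p = 0.00884), was lost without WT sample 2 or KO sample 1. The regulatory GTPases Irgm1 and Irgm2 behaved otherwise. Irgm1 was at 12.4 and 14.1 CPM in WT and 13.9 and 15.5 in KO tumors with vehicle, and at 13 and 12 in WT and 8.21 and 8.35 in KO tumors with JSH-23. Irgm2 was at 1.78 and 1.88 CPM in WT and 2.65 and 1.94 in KO tumors with vehicle, and at 1.23 and 1.16 in WT and 0.486 and 0.432 in KO tumors with JSH-23. For both, the KO samples with JSH-23 were the lowest. Irgm1 changed with JSH-23 by -0.83 (standard error 0.11, adjusted p = 1.78e-09) in KO tumors and by -0.08 (standard error 0.11, adjusted p = 0.559) in WT tumors, an interaction of -0.75 (standard error 0.16, adjusted p = 9.24e-05). For Irgm2 the interaction was -1.68 (standard error 0.54, adjusted p = 0.00956), which was not called without KO sample 1 with vehicle.

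Of the 6 ubiquitin and ADP-ribose ligases, Herc6 and Trim21 rose in KO tumors with vehicle, and with JSH-23 Herc6 was higher and Parp14 lower in KO tumors. Herc6, the main ligase that attaches Isg15 in mice, was at 9.26 and 10.8 CPM in WT and 22.4 and 23.3 in KO tumors with vehicle, and at 7.15 and 6.87 in WT and 10.9 and 10.6 in KO tumors with JSH-23. It was higher in the KO samples under both treatments and lower with JSH-23 in both genotypes. The rise in KO tumors was 1.19 (standard error 0.10, adjusted p = 4.02e-16) with vehicle and 0.61 (standard error 0.13, adjusted p = 3.72e-05) with JSH-23 on the log2 scale, the latter call being lost without WT sample 2. Trim21, an antibody receptor in the cytosol and a ubiquitin ligase, was at 5.40 and 5.47 CPM in WT and 8.12 and 8.28 in KO tumors with vehicle, and at 3.18 and 2.37 in WT and 2.70 and 1.82 in KO tumors with JSH-23. Its JSH-23 effects were -0.96 (standard error 0.20) in WT and -1.87 (standard error 0.19) in KO tumors, with an interaction of -0.91 (standard error 0.29, adjusted p = 0.00823) that was not called without WT sample 1 or KO sample 2 with JSH-23. Its rise in KO tumors with vehicle, 0.59 (standard error 0.16, adjusted p = 0.00163), lay at the 1.5-fold threshold and was lost without WT sample 1 or KO sample 2.

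Parp14, an ADP-ribosyltransferase, was at 19.1 and 18.7 CPM in WT and 15.2 and 14.4 in KO tumors with vehicle, and at 11.7 and 11.8 in WT and 5.24 and 6.04 in KO tumors with JSH-23. The 4 groups did not overlap. With JSH-23 it was lower in KO than in WT tumors by a log2 change of -1.05 (standard error 0.13, adjusted p = 1.44e-10), the only one of the 8 such calls that held whichever library was left out. JSH-23 lowered it by -0.69 in WT and -1.38 in KO tumors (standard errors 0.11 and 0.12), and the interaction of -0.70 (standard error 0.16, adjusted p = 0.000334) was called. Its neighbour Parp9 fell with JSH-23 in both genotypes, by -0.60 and -0.73 on the log2 scale (the former call lost without WT sample 2 with JSH-23). The binding partner of Parp9, Dtx3l, which overlaps the start of Parp9 on the other strand, changed by -0.26 and -0.55, and the ligase Trim25 by -0.15 and -0.15, without a call.

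Of the 4 other interferon-induced genes tested, Xaf1 had the largest rise with loss of Arid1a. Xaf1, an antagonist of the apoptosis inhibitor Xiap, was at 1.01 and 1.71 CPM in WT and 4.14 and 3.73 in KO tumors with vehicle, and at 0.726 and 0.608 in WT and 0.595 and 0.432 in KO tumors with JSH-23. The KO samples were the highest with vehicle and the lowest with JSH-23. The log2 fold changes were 1.53 for KO against WT with vehicle (standard error 0.30, adjusted p = 1.24e-05), -1.01 for JSH-23 in WT (standard error 0.41, adjusted p = 0.0313, lost without any 1 of 3 WT libraries) and -2.93 for JSH-23 in KO tumors (standard error 0.35, adjusted p = 2.04e-11). The interaction of -1.92 (standard error 0.58, adjusted p = 0.00573) was called whichever library was left out. Lgals3bp, a secreted glycoprotein, rose in KO tumors with vehicle by 0.63 and fell in them with JSH-23 by 1.02 on the log2 scale, the rise being lost without WT sample 2 or KO sample 1, while Ifi27 and Ifi35 were not called.

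**Figure D4:**
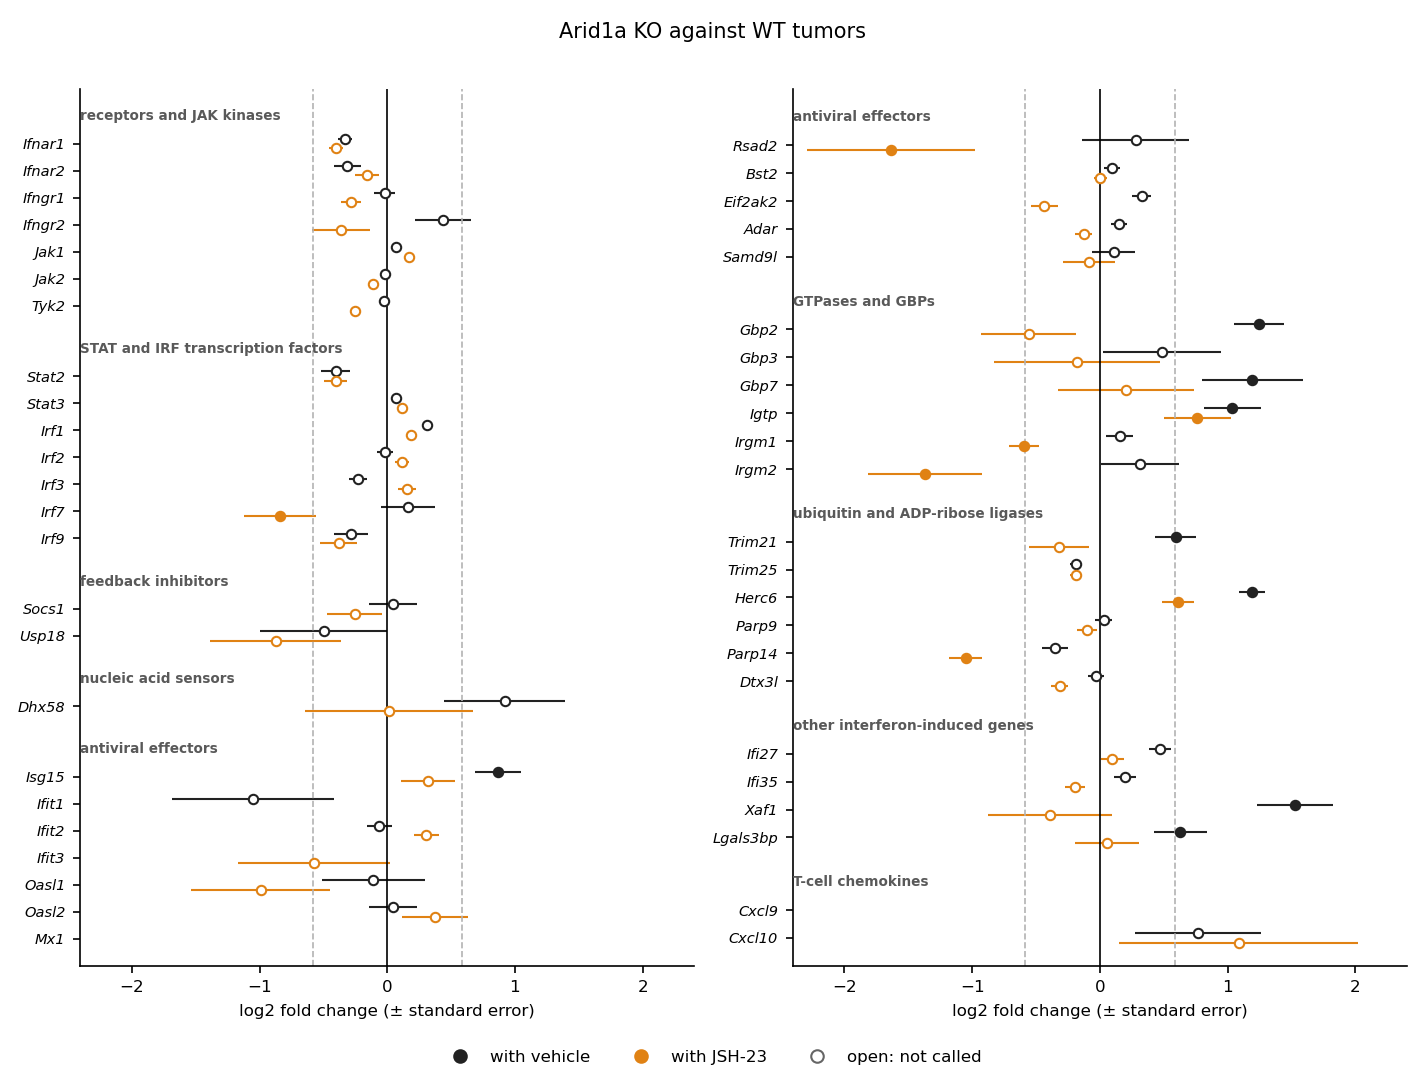
Log2 fold change (± standard error) of KO against WT tumors with vehicle (black) and with JSH-23 (orange) for the tested members, grouped by role. Filled points were called, dashed lines mark a 1.5-fold change, and values for groups with 3 counts or fewer are left out. With vehicle Gbp2, Xaf1, Herc6 and Isg15 lie to the right of 0; with JSH-23 Irgm2, Parp14 and Irgm1 lie to the left.

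The T-cell chemokines were near the floor. Cxcl9, an interferon gamma target, had 12 and 14 counts in WT and 0 and 1 in KO tumors with vehicle, and 8 and 1 in WT and 0 and 0 in KO tumors with JSH-23. It was 29.8-fold lower in KO than in WT tumors with vehicle by the ratio of the summed counts (95% counting interval 4.89 to 1220). Its counts were high in the 3 libraries with high counts of the 6 myeloid markers, whose part was not tested. Cxcl10, which responds to both interferon and NF-κB, was at 0.416 and 0.882 CPM in WT and 1.22 and 1.02 in KO tumors with vehicle, and at 0.223 and 0 in WT and 0.378 and 0.144 in KO tumors with JSH-23. All samples with JSH-23 were below those with vehicle, and the KO samples with vehicle were the highest, as they were for Cd68 but not for the 6 myeloid markers. The part of either in this result was not tested. Cxcl10 reached the level of the filter only in samples with vehicle, so a fall with JSH-23 was built into its selection. With that limit, its log2 change with JSH-23 was -2.42 in WT tumors (standard error 0.79, adjusted p = 0.00734) and -2.10 in KO tumors (standard error 0.57, adjusted p = 0.00101). The WT call was lost without sample 2 of either WT group and the KO call without KO sample 2 with JSH-23. In bulk RNA, fewer cells of a type and less RNA per cell cannot be told apart.

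Most of the 8 calls of members lower in KO than in WT tumors with JSH-23 depended on single libraries. Among WT tumors with JSH-23, 8 of the 43 members with at least 10 counts were over 2-fold higher in sample 1 than in sample 2 (Usp18, Ifit1, Ifit3, Oasl1, Rsad2, Gbp2, Gbp3 and Gbp7) and none was over 2-fold higher in sample 2, whereas 1.81% and 1.31% of all genes were. In the other groups at most 1 member differed in this way in either direction. Without WT sample 1, 2 members instead of 8 were lower in KO tumors with JSH-23, 19 instead of 11 fell with JSH-23 in WT tumors, and 5 instead of 10 had a more negative JSH-23 effect in KO than in WT tumors. Without WT sample 2, the same counts were 12, 5 and 11. Without KO sample 1 or KO sample 2 with JSH-23, 5 of the 10 calls between the genotypes on JSH-23 were lost. The counts for JSH-23 in KO tumors were 23 lower and 5 higher without either WT sample with JSH-23, 21 lower and 4 higher without KO sample 1 with JSH-23, and 19 lower and 5 higher without KO sample 2 with JSH-23.

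Of 88 further genes of the interferon pathway, 48 were tested. With loss of Arid1a and vehicle 9 of the 48 rose and 2 fell (18.8% and 4.17%, against 7.48% and 5.16% of all genes). With JSH-23 in WT tumors 2 rose and 7 fell (4.17% and 14.6%, against 5.55% and 10.2%). With JSH-23 in KO tumors 1 rose and 13 fell (2.08% and 27.1%, against 9.10% and 16.9%). In KO against WT tumors with JSH-23, 0 were higher and 5 lower (0% and 10.4%, against 3.74% and 4.97%). By interaction, the JSH-23 effect was more positive in KO tumors for 0 and more negative for 4 (0% and 8.33%, against 3.30% and 5.76%). Tlr3, the endosomal receptor for double-stranded RNA, was at 16.9 and 16.3 CPM in WT and 28.3 and 27.8 in KO tumors with vehicle, and at 8.15 and 9.18 in WT and 10.3 and 10.3 in KO tumors with JSH-23. It thus rose in KO tumors and fell with JSH-23 in both genotypes. Uba7, the enzyme that activates Isg15, was at 9.56 and 8.59 CPM in WT and 9.78 and 7.70 in KO tumors with vehicle, and at 4.75 and 5.78 in WT and 3.51 and 2.59 in KO tumors with JSH-23. Its JSH-23 effect was larger in KO tumors by -0.73 on the log2 scale (standard error 0.24, adjusted p = 0.0103). Oas3, an oligoadenylate synthetase, was at 1.19 and 1.94 CPM in WT and 4.86 and 4.26 in KO tumors with vehicle and between 1.40 and 2.05 CPM in all samples with JSH-23. Slfn2, a Schlafen family gene, stood apart: it was at 11.2 and 10.8 CPM in WT tumors and 1.66 and 1.45 in KO tumors with vehicle, and at 19.2 and 18.9 in WT and 1.73 and 2.25 in KO tumors with JSH-23, 7.07-fold lower in KO tumors with vehicle (adjusted p = 1.5e-22).

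The ISRE letters were found in members that fell and in members that rose with JSH-23 in KO tumors. Of the 41 tested members with a promoter window, 17 held a match, and all 17 were called in this comparison in the main fit, in which 9.10% of all genes rose and 16.9% fell. Among all 380 tested genes with the letters in their window, 5.79% rose and 22.6% fell, and among the 10621 without them 9.09% and 16.1%. Of the 17 members, 13 fell (Isg15, Gbp2, Gbp3, Gbp7, Igtp, Irgm1, Irgm2, Eif2ak2, Ifit1, Rsad2, Socs1, Trim21 and Cxcl10) and 4 rose (Stat2, Bst2, Irf2 and Ifit3, the last from 3 to 16 counts). Not all of these calls were stable. Those of Gbp3, Igtp, Ifit1, Cxcl10, Irf2 and Ifit3 were each lost on leaving out some single library. DESeq2 did not call Gbp3, Ifit1 and Ifit3, and limma on TPM did not call Bst2, Stat2, Irf2, Ifit1 and Ifit3. The other 24 included 8 that fell, 1 that rose and 15 that were not called. In WT tumors the same 17 included 4 that fell, 2 that rose and 11 that were not called. These counts describe letters in the windows of chosen members and were not tested.

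**Figure D5:**
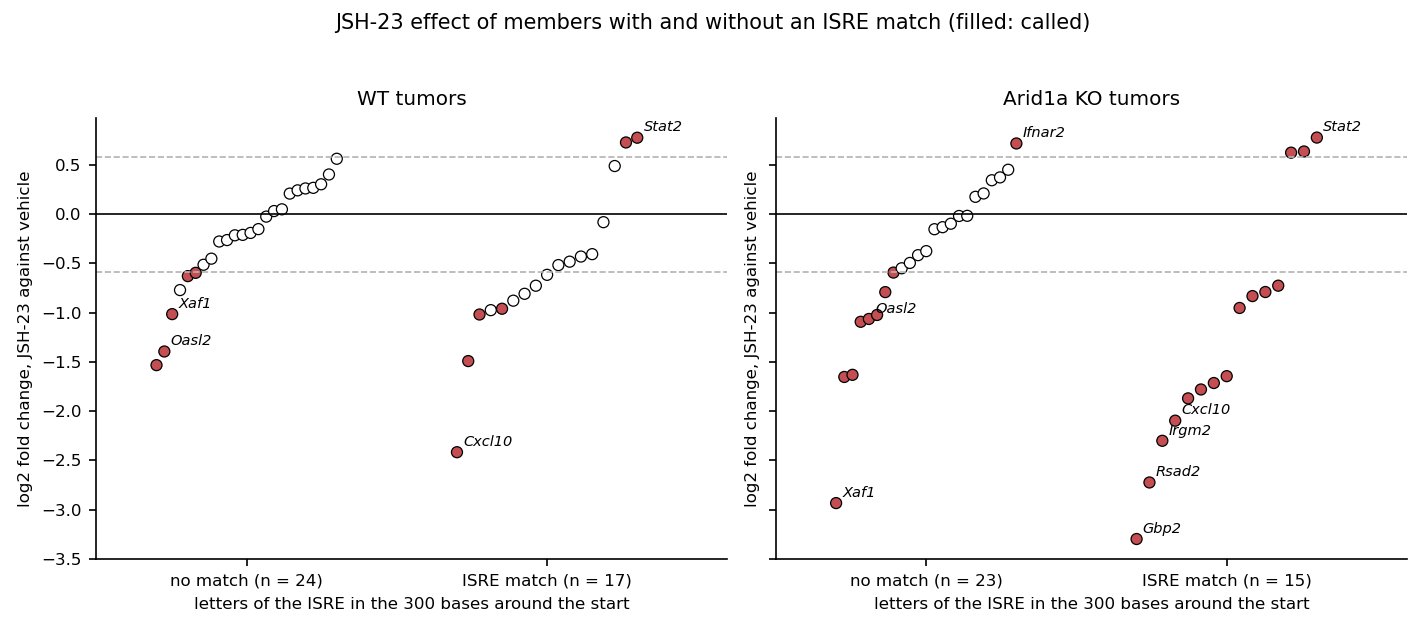
Log2 fold change of JSH-23 against vehicle for members without and with the letters of an ISRE in their promoter window, in WT (left) and KO tumors (right). Each point is a gene, filled when called, and dashed lines mark a 1.5-fold change; genes with 3 counts or fewer in a group are left out. In KO tumors every plotted member with a match lies outside the dashed lines, below them for 12 and above for 3.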

How the data were processed

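Gene counts of 8 samples, deposited as raw counts per gene, were analysed in R 4.3.3. The authors' methods name TopHat2, the mouse genome GRCm38/mm10 and strand-specific counting with HTSeq-count of best matches, whereas the submitters' processing notes name HISAT2, HTSeq, DESeq2 and mm10, so which aligner made the counts is uncertain. The TPM values used for levels between genes were also deposited by the authors. Counts of all 39089 genes were filtered by filterByExpr, scaled by TMM and fitted in edgeR 4.0.16 with a mean per group over all 8 samples. Each of the 5 comparisons used the quasi-likelihood test with Benjamini-Hochberg adjustment over 13921 genes, with calls at an adjusted p under 0.05 and at least 1.5-fold. The fit was tested on simulated data. The members and lists were chosen with earlier results of these data known. Values in every sample are given for up to 5 called members with the largest rise and fall per comparison (mean of at least 1 CPM, no overlap), for the 3 called members with the smallest interaction p, for members fixed by name and for members in a count of 5 or fewer, and exceptions are named as such. Of the other pathway genes, those named are among the 3 with the largest called change in a comparison. CPM is the count scaled to the total of the sample adjusted by its TMM factor, except for the floor of 3 counts, which was scaled to the total count alone. Counting intervals and floors cover counting error only. Same-numbered samples were not treated as pairs, since the correlations of their deviations from the group means lay between -0.0964 and 0.0401. Alternatives were DESeq2 1.42.0, limma 3.58.1 on log2(TPM + 1) and log2(TPM + 0.1), other scaling, filters, thresholds and spreads, a replicate block and leaving out each sample. Promoter sequences came from RefSeq.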

Additional observations from a re-analysis of the deposited data

Results flagged for a closer look

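The JSH-23 effect differed between the genotypes for 11 members by the interaction term in edgeR, where a negative value is a more negative effect in KO than in WT tumors on the log2 scale. Among the signalling members these were Ifngr2 at -0.80 and Irf7 at -1.0. Among the antiviral effectors they were Rsad2 at -1.91, Eif2ak2 at -0.76 and, as the one positive value, Ifit3 at 3.17, which rests on 3 counts in KO tumors with vehicle. Among the GTPases they were Gbp2 at -1.81, Irgm2 at -1.68 and Irgm1 at -0.75, and among the ligases Trim21 at -0.91 and Parp14 at -0.70. The largest negative value was that of Xaf1, at -1.92. The calls of Irgm1, Parp14 and Xaf1 held whichever library was left out. That of Ifngr2 was lost without any one of 7 libraries, and that of Rsad2 was lost without WT sample 1 or 2 or KO sample 1 or 2 with vehicle, or without sample 1 of either JSH-23 group.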

How the results depend on the processing

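Over 13 alternatives with all samples and 8 that each left out 1 library, 149 of 208 counts of called members stayed within 1.5 times and 59 moved. The counts were for members higher and lower in KO against WT tumors with vehicle (8 and 3), in KO against WT tumors on JSH-23 (2 and 8), with JSH-23 in WT tumors (2 and 11) and in KO tumors (5 and 24), and by interaction (1 and 10). Testing directly against a 1.5-fold change with glmTreat gave 3 higher in KO tumors with vehicle, 0 higher and 1 lower in KO tumors with JSH-23, 1 higher and 3 lower with JSH-23 in WT tumors, 0 higher in KO tumors and interactions of 0 and 1. A biological coefficient of variation of 0.2 gave, in the same order, 3, then 0 and 4, then 0 and 4, then 1, and interactions of 0 and 0, and one of 0.1 gave 6 lower interactions. Without a fold threshold the counts were 13 and 9, 6 and 18, 9 and 17, 10 higher with JSH-23 in KO tumors, and interactions of 3 and 16. DESeq2 gave 5 higher with vehicle, 1 and 3 in KO against WT tumors with JSH-23, 7 lower with JSH-23 in WT tumors and interactions of 0 and 5. limma on log2(TPM + 1) gave 5 higher with vehicle, 0 and 3 in KO against WT tumors with JSH-23, 6 lower with JSH-23 in WT tumors, 0 higher in KO tumors and 0 higher interactions, and with TPM + 0.1 it gave 0 higher in KO against WT tumors with JSH-23 and 0 higher with JSH-23 in KO tumors. Scaling by library size only gave 1 higher in KO against WT tumors with JSH-23 and 3 higher with JSH-23 in KO tumors. With no filter 5 were lower with vehicle. Requiring 10 counts or more in all samples, so that fewer members were tested, 0 were lower with vehicle, 3 lower in KO against WT tumors with JSH-23, 15 lower with JSH-23 in KO tumors and 0 higher by interaction. A fit of only the groups compared gave 4 lower in KO against WT tumors under JSH-23 treatment. The cause was not tested for the other changes.

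Leaving out 1 library at a time gave 6 to 9 higher and 3 to 4 lower with vehicle, 0 to 3 and 2 to 12 in KO against WT tumors with JSH-23, 2 to 3 and 5 to 19 with JSH-23 in WT tumors, 4 to 5 and 19 to 24 in KO tumors, and interactions of 0 to 2 and 5 to 11. A group left with 1 sample was assumed to vary like the others. Same-numbered samples shared only a number, and a fit with the replicate block kept all 11, 10, 13, 29 and 11 calls.

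Signs reversed only for values that were not called. With library size only these were Ifngr1 (0.00490) and Tyk2 (0.00332) in KO against WT tumors with vehicle and the interaction of Stat2 (-0.10), which was -0.00722 with the minimum of 10 counts. With DESeq2 the interaction of Cxcl9 was 0.13. With limma on TPM + 1 and TPM + 0.1, the comparison of genotypes on JSH-23 gave -0.00217 and -0.00219 for Irf1 and -0.0172 and -0.0174 for Jak1, JSH-23 in WT tumors gave -0.0104 and -0.0105 for Irf1, and the interactions were 0.44 and 1.26 for Cxcl9, -0.0876 and -0.0888 for Jak1, -0.20 for Stat2 and, with TPM + 1, -0.27 for Cxcl10. Leaving out 1 library moved KO against WT with vehicle from -0.0751 to 0.0266 for Ifngr1, -0.13 to 0.53 for Irf7 and -0.0640 to 0.0122 for Tyk2. It moved the JSH-23 effect from -0.00360 to 0.0746 for Irf1 in WT tumors, and in KO tumors from -0.0311 to 0.00960 for Ifnar1, -0.0425 to 0.0505 for Ifngr1 and -3.02 to 0 for Cxcl9. The interactions ranged from -0.12 to 0.12 for Stat2, -0.58 to 4.5 for Cxcl10, -0.28 to 0.0735 for Irf9 and -1.50 to 1.53 for Cxcl9. The median of all genes for JSH-23 in KO tumors moved to -0.13 with library size only and to -0.20 and -0.25 with limma, and the members' median stayed 0.44 to 0.71 below it.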
